A study of Mus musculus with 9 samples.

Results

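The 9 genes described here encode CXC chemokines and chemokine receptors of the mouse: the ligands Cxcl2, Cxcl10 and Cxcl16, the signalling receptors Cxcr4, Ccr1, Ccr2 and Cx3cr1, and the atypical receptors Ccrl2 and Ackr3. They were chosen by symbol and matched to 9 of the 55487 Ensembl gene identifiers in each count list. RNA was sequenced from unstimulated RAW264.7 cells, a mouse macrophage line that was transformed with Abelson leukaemia virus and comes from the BALB/c strain. The wild-type macrophages carry intact CEBPD, the gene for the transcription factor C/EBPδ. The knock-out (CEBPD KO) macrophages are clones with an out-of-frame deletion made by CRISPR/Cas9. The ΔTAD (CEBPD TAD mutant) macrophages carry an in-frame deletion of the transactivation domain, so that a protein that binds DNA but lacks this domain is made from its own promoter. Edited cells were sorted for GFP, selected with puromycin as single cells and expanded, and 3 libraries were made per genotype. The series describes independent clones for RNA sequencing without saying whether this covers the wild-type libraries. For the experiments with lipopolysaccharide, which are not analysed here, the study names individual clones of each genotype, wild-type included. Those clones were fewer per genotype than the libraries here.

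Chemokines are small secreted proteins that direct the migration of leukocytes by binding receptors with a seven-helix fold, most of which signal through inhibitory G proteins. Their family names follow the spacing of the first cysteines of the mature protein. Cxcl2 recruits neutrophils, Cxcl10 attracts activated T cells through Cxcr3 and is induced by interferons, and Cxcl16 is made as a membrane-bound protein that also takes up oxidized lipoprotein. Macrophages express several of these ligands after contact with bacterial products, and monocytes enter tissues by means of Ccr2 and are retained or patrol by means of Cxcr4 and Cx3cr1. Atypical receptors bind chemokines without activating G proteins.

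As C/EBPδ binds CCAAT-related DNA motifs, promoters of the members were searched for this and 3 other motifs. Shown are those of Cxcl2, Cxcl10 and Cx3cr1, the members that passed the filter on low counts and whose windows held a match. Cxcl2 was higher in knock-out and lower in ΔTAD macrophages, Cxcl10 was higher in knock-out macrophages, and Cx3cr1 was the most abundant member. The sequences are those of RefSeq for GRCm38.p6, a reference from the C57BL/6J strain, from 250 bases before to 50 bases after the start site, 5′ to 3′ on the strand of the gene. Capitals mark matches to the motifs named in the next paragraph.
Cxcl2 (chr5:90903649-90903948, plus strand): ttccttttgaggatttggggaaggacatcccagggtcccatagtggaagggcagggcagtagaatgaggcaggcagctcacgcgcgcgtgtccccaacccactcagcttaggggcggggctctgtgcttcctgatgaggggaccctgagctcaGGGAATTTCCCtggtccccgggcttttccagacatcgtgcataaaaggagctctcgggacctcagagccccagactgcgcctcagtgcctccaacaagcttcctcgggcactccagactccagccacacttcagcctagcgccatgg
Cxcl10 (chr5:92348840-92349139, minus strand): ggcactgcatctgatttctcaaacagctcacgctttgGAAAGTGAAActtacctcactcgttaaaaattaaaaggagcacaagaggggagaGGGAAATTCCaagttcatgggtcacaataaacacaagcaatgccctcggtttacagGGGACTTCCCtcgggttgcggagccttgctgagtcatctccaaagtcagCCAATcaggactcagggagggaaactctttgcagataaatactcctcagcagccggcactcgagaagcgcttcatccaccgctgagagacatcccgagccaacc
Cx3cr1 (chr9:120068247-120068546, minus strand): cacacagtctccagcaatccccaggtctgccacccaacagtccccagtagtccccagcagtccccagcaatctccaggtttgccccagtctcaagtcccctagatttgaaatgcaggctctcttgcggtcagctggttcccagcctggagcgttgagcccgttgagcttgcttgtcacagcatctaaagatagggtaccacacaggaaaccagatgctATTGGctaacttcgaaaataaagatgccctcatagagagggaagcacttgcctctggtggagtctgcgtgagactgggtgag

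Of the 9 members, 8 had a promoter in the RefSeq table. Cxcl16 had none there and was not searched. Searched on both strands were CCAAT, the C/EBP-type motif TTGCNNAA, the kappaB motif bound by NF-κB, and the core of the interferon-stimulated response element (TTTC and TTTC with 2 bases between them). CCAAT occurred in the windows of 4 of these 8 genes (Cxcl10, Cx3cr1, Ccrl2 and Ackr3), beside 37.9% of all 26742 promoters of the same length. TTGCNNAA occurred only in the window of Ackr3 (1 of 8, beside 10.8% of all promoters). The kappaB motif was found in 3 of 8 (Cxcl2, Cxcl10 and the first of the Ccrl2 start sites), beside 4.37% of all promoters. In Cxcl10 it occurred at bases -159 to -150 and at -103 to -94 from the start site, and in Cxcl2 it matched both strands between bases -97 and -87. The interferon motif was found in Cxcl10 alone (1 of 8, from -213 to -204), beside 3.49% of all promoters. The windows of Cxcr4, Ccr1 and Ccr2 held none of these letters. A match is a description of the sequence and not of binding.

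In the GENCODE annotation of GRCm38, the ligand genes Cxcl2 (ENSMUSG00000058427, chr5:90903871-90905938, plus strand) and Cxcl10 (ENSMUSG00000034855, chr5:92346638-92348889, minus strand) lie on chromosome 5, and Cxcl16 (ENSMUSG00000018920, chr11:70453983-70459984, minus strand) on chromosome 11. Chromosome 9 holds Ccrl2 (ENSMUSG00000043953, chr9:111054486-111057519, minus strand), Cx3cr1 (ENSMUSG00000052336, chr9:119901616-120069879, minus strand), Ccr1 (ENSMUSG00000025804, chr9:123962124-123968692, minus strand) and Ccr2 (ENSMUSG00000049103, chr9:124101950-124113557, plus strand). Cxcr4 (ENSMUSG00000045382, chr1:128588199-128592293, minus strand) and Ackr3 (ENSMUSG00000044337, chr1:90203980-90216751, plus strand) are on chromosome 1. Exons of Art3 cover 5.91% of the Cxcl10 exons and those of Gm33858 cover 1.73% of the Cx3cr1 exons, both on the opposite strand, and these genes had at most 6 and 11 counts in a library. As the strand setting of the counting is not given in the sources used here, reads in such overlaps cannot be assigned to one gene.

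Each library held between 16113306 and 20981829 reads counted on genes, and a count of 3, taken as the floor, corresponds to 0.143 to 0.210 CPM (read counts scaled to a common library size, with edgeR's TMM factors). The library of ΔTAD replicate 1 stood apart. The ribosomal RNA gene CT010467.1 was at 110000 CPM there (scaled by library total), against 11500 and 11600 CPM in the other ΔTAD libraries, and the chi-square of this library's counts over genes against either of these libraries was 150 per degree of freedom, while it was 2.01 to 4.18 in the pairs of libraries without it. Leaving out this gene alone lowered the value to 24.3 and 24.9. Other genes also stood out in this library on the same scale. Lars2 was at 5630 CPM there, against 402 and 456 CPM in the other ΔTAD libraries. The mitochondrial ribosomal RNA genes mt-Rnr2 (3930 against 330 and 319 CPM) and mt-Rnr1 (3080 against 289 and 244 CPM) were higher too. Their part in the remaining value was not tested. The members and the genes of the lists below were also fitted without this library, and the values are given for each named gene whose call changed. The Cebpd transcript, from which the deletions remove only a part, was not called in either edited genotype (wild-type 6.51 ± 0.674 CPM, knock-out 5.44 ± 0.201 CPM, ΔTAD 5.44 ± 0.669 CPM, SD, n = 3, with edgeR adjusted p = 0.085 and 0.0931 against wild-type), so it does not check the labels. All 10 macrophage markers examined had more than 3 counts in some library. Of the 9 that were tested, 6 were called higher and 1 lower in knock-out, and 7 higher and 1 lower in ΔTAD macrophages, and their summed level was 3498 to 3686 CPM in the wild-type, 4613 to 4995 CPM in the knock-out and 7126 to 7304 CPM in the ΔTAD libraries. Lyz2 made up most of the rise in this sum, with means of 1170, 2110 and 4190 CPM, while Fcgr1 was lower in both edited genotypes (39.5, 17.8 and 28.9 CPM) and Itgam was not called (34.3, 30.7 and 31.1 CPM). Of the markers of other cell types, Cd3e, Cd3g and Cd8a (T cells), Ms4a1 (B cells), S100a9 (neutrophils), Flt3 (dendritic cells), Epcam and Krt18 (epithelium) and Col1a2 and Pdgfra (fibroblasts) were at 0 counts in all 9 libraries. Apart from osteoclast markers, others were detected at low levels. S100a8 (neutrophils) had at most 26 counts in a library, Zbtb46 (dendritic cells) 28, Cd4 (T cells) 6 and Kdr (endothelium) 25. The osteoclast markers Ctsk and Dcstamp reached means of 1550 CPM (ΔTAD) and 71.3 CPM (knock-out) and are described below. The summed level of the 3 endothelial markers was 0.7524 to 1.496 CPM in the wild-type, 0.1133 to 0.2636 CPM in the knock-out and 0.09518 to 0.3498 CPM in the ΔTAD libraries, and Kdr was called lower in both edited genotypes (log2 fold change -2.66 and -5.15, edgeR adjusted p = 0.000133 and 2.27e-06).

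To compare the members with one another, their levels were divided by the length of their exons (CPM per kilobase). This length is the union over all annotated transcripts, retained introns included. It therefore spans the whole gene for Cxcl2 (2068 bases) and Cxcl10 (2252 bases), and it is 6760 bases for Ccr2 and 2833 for Ccr1. The order below holds for these lengths, and shorter transcripts could change it. In wild-type macrophages Cx3cr1 was highest at 5.63 ± 0.346 CPM per kilobase (SD, n = 3), followed by Cxcl2 at 3.25 ± 0.343 and Cxcr4 at 1.47 ± 0.335. Ccr1 (0.599 ± 0.0997), Ccr2 (0.386 ± 0.038) and Cxcl10 (0.304 ± 0.033) lay lower on the same scale, and the libraries of neighbours in this order did not overlap. At the end of the order were Cxcl16 (0.170 ± 0.041) and Ccrl2 (0.123 ± 0.0305), whose libraries overlapped. In knock-out macrophages the order of these levels was Cx3cr1 (15.3 ± 0.321), Cxcr4 (7.71 ± 0.499), Cxcl2 (4.33 ± 0.224), Cxcl16 (3.29 ± 0.363), Cxcl10 (0.762 ± 0.173), Ccr2 (0.469 ± 0.0433), Ccrl2 (0.158 ± 0.0362) and Ccr1 (0.0857 ± 0.0191), and no neighbours overlapped. In ΔTAD macrophages it was Cx3cr1 (40.0 ± 0.646), Cxcr4 (6.49 ± 0.267), Cxcl16 (4.31 ± 0.141), Cxcl2 (1.08 ± 0.0645), Cxcl10 (0.383 ± 0.0946), Ccr2 (0.166 ± 0.0231), Ccrl2 (0.161 ± 0.0852) and Ccr1 (0.128 ± 0.0245), where the libraries of Ccrl2 overlapped those of Ccr2 and of Ccr1. Cxcl16 thus moved from the second lowest detected level in wild-type macrophages to the third highest in ΔTAD macrophages. Bulk RNA cannot tell a change in the number of expressing cells from a change in RNA per cell.

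**Figure D1:**
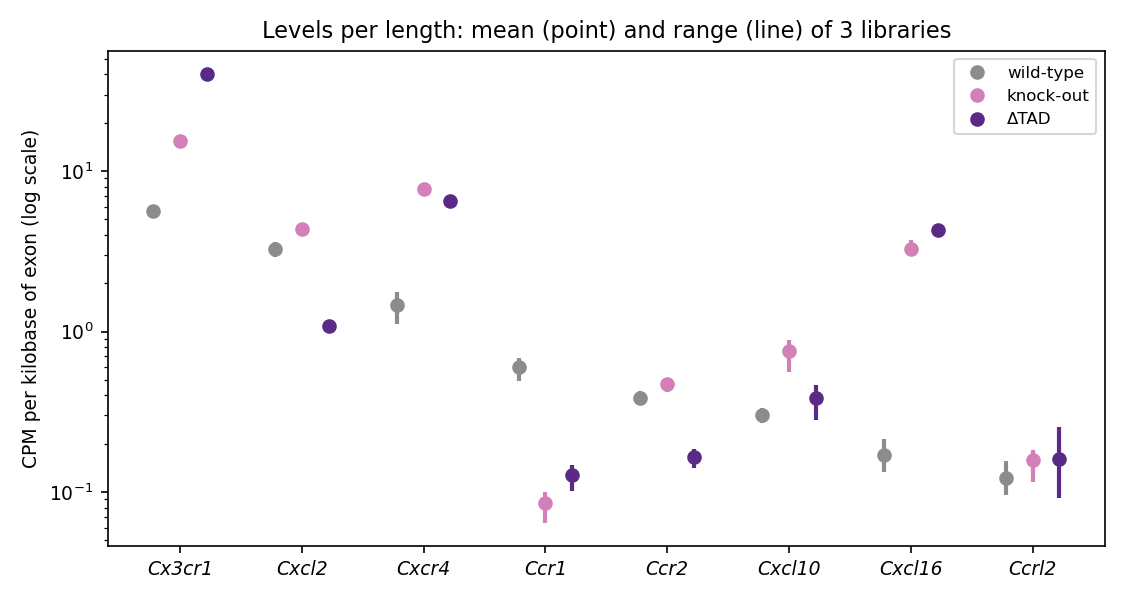
Level of each detected member in CPM per kilobase of exon (y axis, log scale) in wild-type, knock-out and ΔTAD macrophages. Points are means and lines the range of 3 libraries. Cx3cr1 is the highest member in each genotype, and Cxcl16 lies between 3.0 and 4.47 in the edited macrophages against 0.134 to 0.215 in wild-type macrophages.

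Among the ligands, Cxcl16 showed the largest difference from wild-type macrophages. Wild-type libraries held 13, 7 and 8 counts of it (0.648, 0.405 and 0.484 CPM), knock-out libraries 172, 158 and 197 (9.07, 9.55 and 11.2 CPM) and ΔTAD libraries 193, 265 and 269 (13.5, 12.7 and 12.8 CPM). Every edited library was above every wild-type library, and every ΔTAD library was above every knock-out library. Cxcl16 was 18.8-fold higher in knock-out macrophages (log2 fold change 4.24, standard error 0.185, edgeR adjusted p = 1.03e-15) and 24.6-fold higher in ΔTAD macrophages (log2 fold change 4.62, standard error 0.174, edgeR adjusted p = 4.47e-17). A fold change of this size or larger was seen in 1.01% of all tested genes in knock-out and in 0.573% in ΔTAD macrophages. Cxcl16 passed the filter on low counts through the edited libraries. Knock-out macrophages were lower than ΔTAD macrophages (log2 fold change -0.39, standard error 0.0949, edgeR adjusted p = 0.00186), but this call was lost without ΔTAD replicate 1 (-0.34, edgeR adjusted p = 0.011), without knock-out replicate 1 (-0.32, edgeR adjusted p = 0.0195) and without knock-out replicate 2 (-0.36, edgeR adjusted p = 0.0112). Exons of Zmynd15 on the opposite strand cover 18.3% of the Cxcl16 exons. Zmynd15 had 1, 5 and 6 counts in wild-type, 18, 14 and 11 in knock-out and 12, 15 and 20 in ΔTAD libraries. The part of this overlap in the counts of either gene was not tested.

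Cxcl2, the mouse neutrophil chemoattractant also named MIP-2, was the only member called in opposite directions in the edited genotypes. It had 133, 129 and 100 counts in wild-type (6.63, 7.47 and 6.06 CPM), 165, 157 and 153 in knock-out (8.70, 9.49 and 8.67 CPM) and 32, 44 and 50 in ΔTAD libraries (2.24, 2.11 and 2.38 CPM). The 3 genotypes did not overlap, with ΔTAD lowest and knock-out highest. The level was 1.33-fold higher in knock-out macrophages (log2 fold change 0.41, standard error 0.109, edgeR adjusted p = 0.00242) and 2.99-fold lower in ΔTAD macrophages (log2 fold change -1.58, standard error 0.141, edgeR adjusted p = 6.72e-10). A fold change at least as large as that of Cxcl2 was seen in 30.8% of all tested genes in knock-out and in 4.42% in ΔTAD macrophages. Calls in opposite directions were made for 1.26% of all tested genes. Between the edited genotypes Cxcl2 was 3.97-fold higher in knock-out than in ΔTAD macrophages (log2 fold change 1.99, standard error 0.134, edgeR adjusted p = 1.77e-11). The increase in knock-out macrophages was no longer called with DESeq2 (adjusted p = 0.0146), without knock-out replicate 2 (log2 fold change 0.38, edgeR adjusted p = 0.0117) or without wild-type replicate 3 (0.35, edgeR adjusted p = 0.0157).

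Cxcl10, the interferon-inducible ligand of Cxcr3, was sparse. It had 14, 13 and 10 counts in wild-type (0.698, 0.752 and 0.606 CPM), 36, 21 and 35 in knock-out (1.90, 1.27 and 1.98 CPM) and 9, 19 and 22 in ΔTAD libraries (0.630, 0.912 and 1.05 CPM). The knock-out libraries were above all others, and the ΔTAD libraries overlapped the wild-type libraries. In knock-out macrophages Cxcl10 was 2.5-fold higher (log2 fold change 1.32, standard error 0.285, edgeR adjusted p = 0.000336). In ΔTAD macrophages the log2 fold change was 0.37, with a 95% interval of -0.30 to 1.03 (edgeR adjusted p = 0.341). Compared directly, Cxcl10 was 1.94-fold higher in knock-out than in ΔTAD macrophages (log2 fold change 0.96, edgeR adjusted p = 0.00529). This direct difference was not called with DESeq2 (adjusted p = 0.0231), nor after leaving out knock-out replicate 1 (edgeR adjusted p = 0.0281), knock-out replicate 3 (0.0331), ΔTAD replicate 1 (0.0209) or ΔTAD replicate 2 (0.0188).

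**Figure D2:**
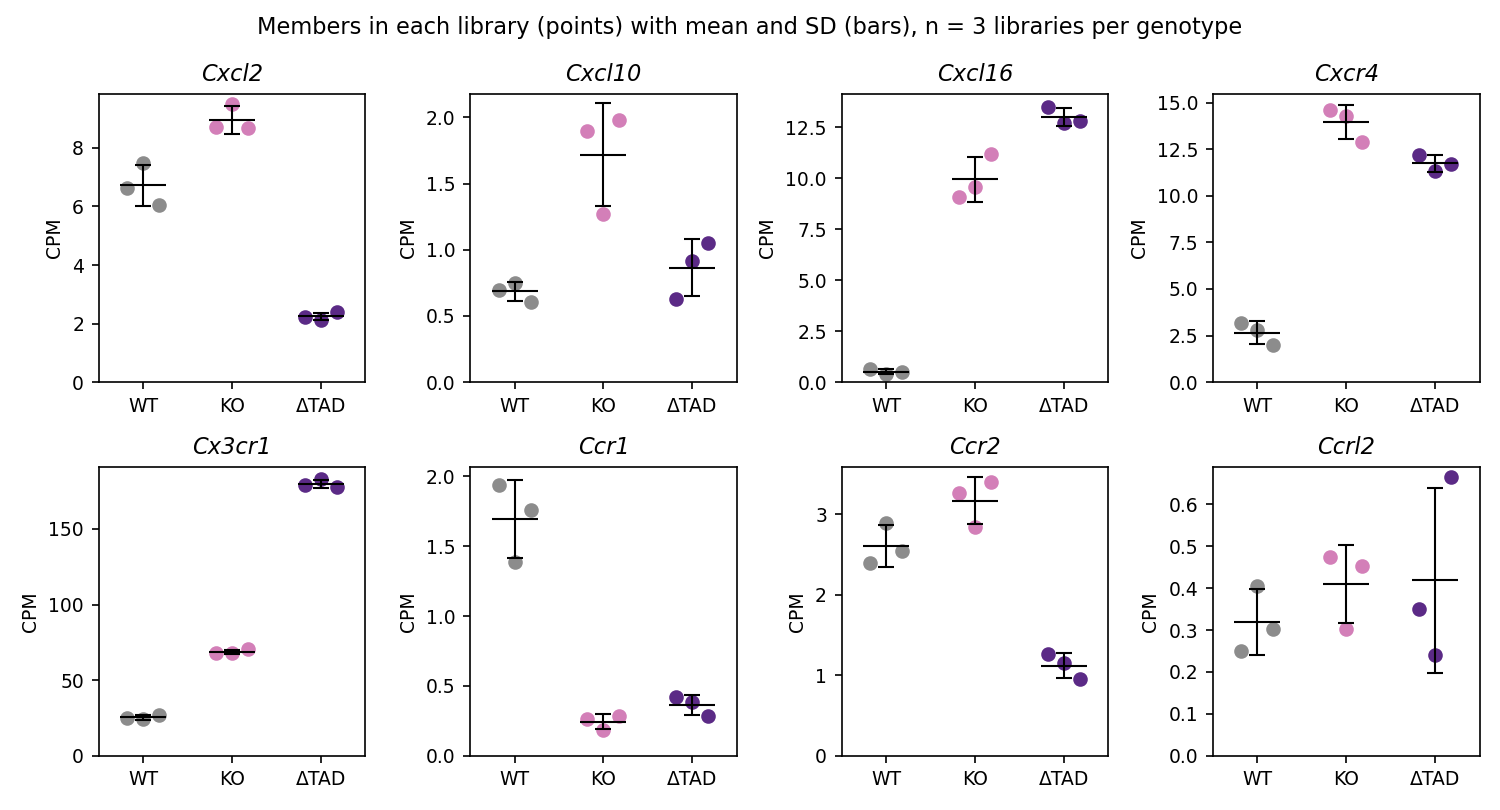
Level in CPM (y axis, linear from 0, one scale per gene) of the 8 detected members in wild-type (WT), knock-out (KO) and ΔTAD libraries. Points are libraries, the long bar is the mean and the whiskers are the SD (n = 3). Cxcl16, Cxcr4 and Cx3cr1 are higher in both edited genotypes, Ccr1 is lower in both, and Cxcl2 and Ccr2 are lowest in ΔTAD macrophages.

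Of the signalling receptors, Cx3cr1 and Cxcr4 rose in both edited genotypes. Cx3cr1, the receptor of the membrane-bound chemokine fractalkine on monocytes and tissue macrophages, had 501, 415 and 447 counts in wild-type (25.0, 24 and 27.1 CPM), 1289, 1122 and 1242 in knock-out (68.0, 67.8 and 70.4 CPM) and 2552, 3819 and 3744 in ΔTAD libraries (179, 183 and 178 CPM). The libraries of a genotype lay close together and the genotypes were far apart, in the order wild-type, knock-out, ΔTAD. The increase was 2.71-fold in knock-out (log2 fold change 1.44, standard error 0.0439, edgeR adjusted p = 8.24e-19) and 7.11-fold in ΔTAD macrophages (log2 fold change 2.83, standard error 0.0398, edgeR adjusted p = 1.06e-25). The edited genotypes differed by -1.39 on the log2 scale, knock-out being 2.62-fold lower than ΔTAD (standard error 0.0343, edgeR adjusted p = 3.85e-20). Its ligand Cx3cl1 had at most 2 counts in any library.

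Cxcr4, the receptor of Cxcl12 that retains leukocytes in the bone marrow, had 64, 48 and 33 counts in wild-type (3.19, 2.78 and 2.00 CPM), 277, 237 and 228 in knock-out (14.6, 14.3 and 12.9 CPM) and 175, 235 and 245 in ΔTAD libraries (12.2, 11.3 and 11.7 CPM). All edited libraries were above all wild-type libraries. The increase was 5.18-fold in knock-out (log2 fold change 2.37, standard error 0.126, edgeR adjusted p = 4.37e-14) and 4.34-fold in ΔTAD macrophages (log2 fold change 2.12, standard error 0.129, edgeR adjusted p = 5.41e-13). The edited genotypes differed by 0.26 on the log2 scale (knock-out minus ΔTAD), with a 95% interval of 0.06 to 0.45, which was not called (edgeR adjusted p = 0.029), although the libraries did not overlap. When only these 2 genotypes were fitted, it was called (0.28, edgeR adjusted p = 0.0099). Cxcl12 itself was at 0 counts in every library.

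Ccr1 and Ccr2, receptors of inflammatory CC chemokines, lie in the same cluster of receptor genes on chromosome 9 and are described together. Ccr1 had 39, 24 and 29 counts in wild-type (1.94, 1.39 and 1.76 CPM), 5, 3 and 5 in knock-out (0.264, 0.181 and 0.283 CPM) and 6, 8 and 6 in ΔTAD libraries (0.420, 0.384 and 0.286 CPM). Both edited genotypes were near the floor and below every wild-type library. Ccr1 was 6.81-fold lower in knock-out (log2 fold change -2.77, standard error 0.344, edgeR adjusted p = 2.06e-07) and 4.71-fold lower in ΔTAD macrophages (log2 fold change -2.24, standard error 0.312, edgeR adjusted p = 1.15e-06), and it passed the filter on low counts through the wild-type libraries. At these counts no difference between knock-out and ΔTAD macrophages was detectable (log2 fold change -0.53, 95% interval -1.52 to 0.45, edgeR adjusted p = 0.395). Ccr2, the receptor of Ccl2 on inflammatory monocytes, had 48, 50 and 42 counts in wild-type (2.39, 2.89 and 2.54 CPM), 62, 47 and 60 in knock-out (3.27, 2.84 and 3.40 CPM) and 18, 24 and 20 in ΔTAD libraries (1.26, 1.15 and 0.952 CPM). The ΔTAD libraries were below all others, and the knock-out libraries overlapped the wild-type libraries. Ccr2 was 2.34-fold lower in ΔTAD macrophages (log2 fold change -1.23, standard error 0.212, edgeR adjusted p = 2.25e-05). In knock-out macrophages the log2 fold change was 0.29 with a 95% interval of -0.07 to 0.65 (edgeR adjusted p = 0.172), and knock-out exceeded ΔTAD macrophages 2.86-fold (log2 fold change 1.52, standard error 0.205, edgeR adjusted p = 2.12e-06).

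The atypical receptors were barely expressed. Ccrl2, which presents chemerin and does not signal, had 5, 7 and 5 counts in wild-type (0.249, 0.405 and 0.303 CPM), 9, 5 and 8 in knock-out (0.475, 0.302 and 0.453 CPM) and 5, 5 and 14 in ΔTAD libraries (0.350, 0.240 and 0.666 CPM). The genotypes overlapped, and Ccrl2 did not pass the filter on low counts. Fitted together with all 26804 genes that had at least 1 count, its knock-out libraries differed from wild-type by 0.38 on the log2 scale (95% interval -0.62 to 1.38, edgeR adjusted p = 0.633) and its ΔTAD libraries by 0.44 (95% interval -0.54 to 1.43, edgeR adjusted p = 0.542). Ackr3, which binds and clears Cxcl12, had 0 counts in all 9 libraries, which allows a level of up to 0.143 to 0.210 CPM depending on the library. This limit and the floor cover counting error only.

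In all, of the 9 members 5 were called higher and 1 lower in knock-out macrophages, where 45.2% of all tested genes were called (22.8% higher and 22.4% lower). In ΔTAD macrophages 3 were called higher and 3 lower, where 49.7% of all tested genes were called (26.3% higher and 23.4% lower). Between knock-out and ΔTAD macrophages 3 were called higher and 2 lower, against 33.0% of all tested genes (13.9% higher and 19.1% lower). Libraries of the genotypes compared did not overlap for 59.7%, 63.1% and 52.8% of the tested genes in these comparisons, respectively. With an absolute log2 fold change of 1 or more in addition, 5 members were called in knock-out, 6 in ΔTAD and 3 between the edited genotypes, beside 7.66%, 9.31% and 3.93% of all tested genes. Of the members, 7 passed the filter on low counts, and their median absolute log2 fold change was 1.44 (knock-out) and 2.12 (ΔTAD), beside 0.24 and 0.27 over all tested genes. Any 2 of these comparisons share the libraries of 1 genotype. The members were chosen with earlier results of these data known, and some passed the filter only through the genotype in which they are high. The counts and the medians are therefore a description.

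**Figure D3:**
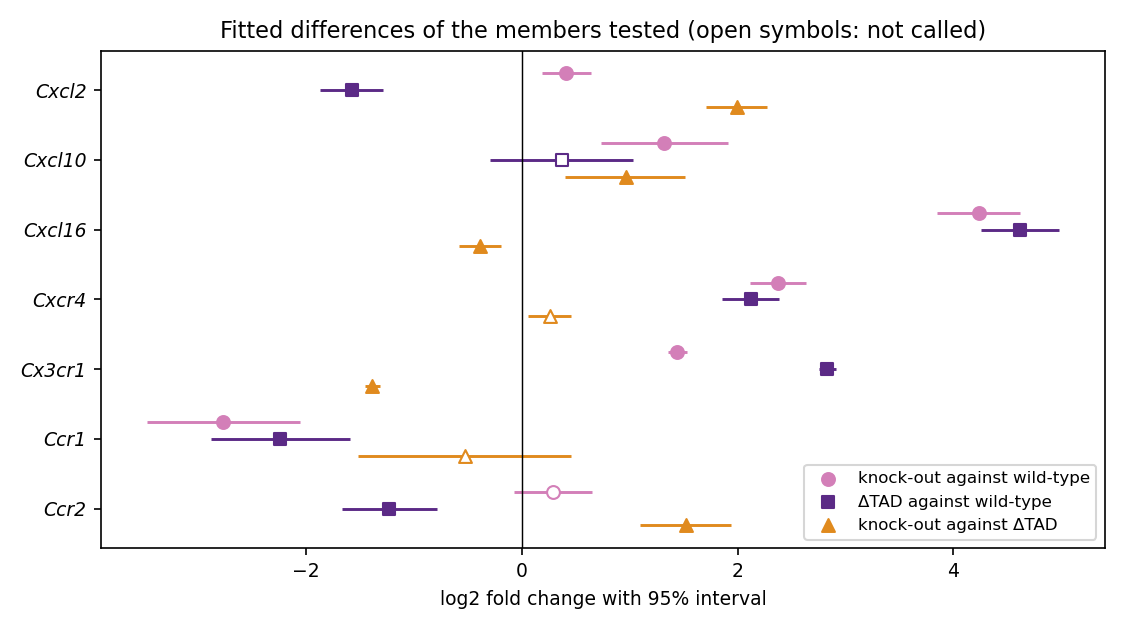
Fitted log2 fold change (x axis) with its 95% interval (line) for the 7 members tested, in knock-out against wild-type (circles), ΔTAD against wild-type (squares) and knock-out against ΔTAD macrophages (triangles). Filled symbols were called at an adjusted p-value under 0.01 by edgeR. Cxcl2 lies at 0.41 and -1.58 against wild-type, on either side of 0.

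The genes around each member are given as a description, since a median near 0 can hold genes that moved both ways. The tested genes of chromosomes 1, 5, 9 and 11, which hold the members, had median log2 fold changes of -0.03 to 0.03 in knock-out macrophages, and of -0.06 to 0.00 in ΔTAD macrophages. Within 1 Mb of a tested member, the median over its neighbours lay between -0.11 and 0.16 in knock-out macrophages and between -0.24 and 0.09 in ΔTAD macrophages. The value of -0.24 was that of 8 genes around Cxcl2, which itself was at -1.58. The 69 tested genes around Cxcl16 had medians of 0.07 and 0.09, beside 4.24 and 4.62 for Cxcl16.

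**Figure D4:**
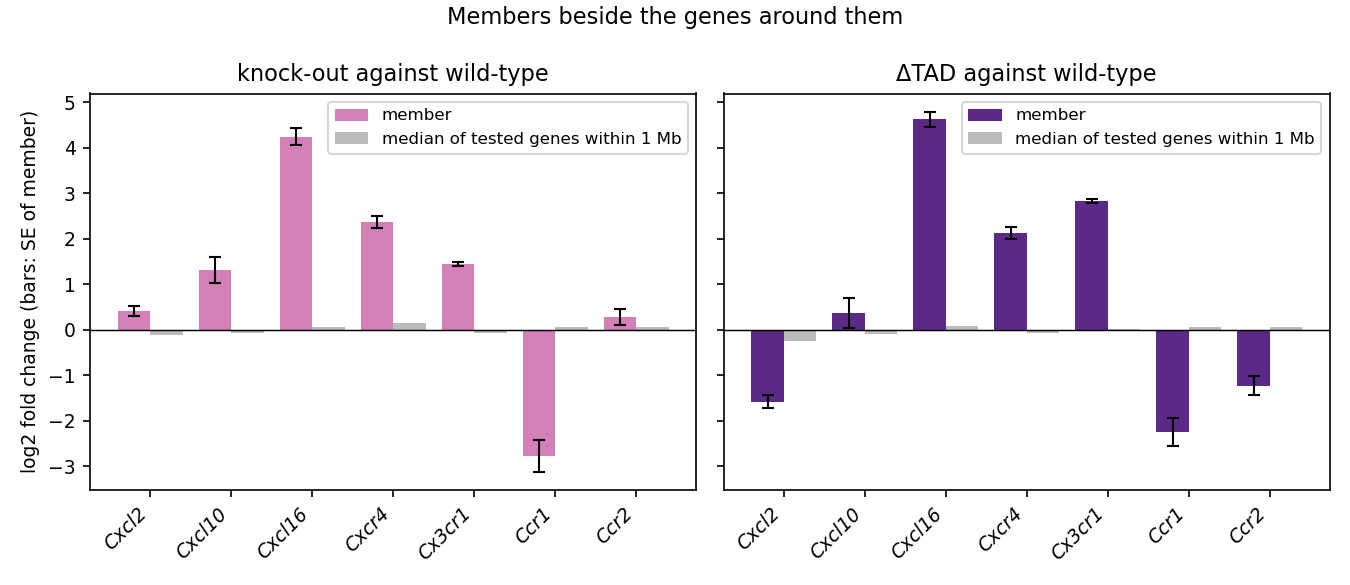
Log2 fold change (y axis) of each tested member (coloured bars, whiskers are the standard error) beside the median of the other tested genes within 1 Mb (grey bars), in knock-out (left) and ΔTAD macrophages (right) against wild-type macrophages. The grey bars lie between -0.24 and 0.16.

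The other ligands of the CXC, CX3C and XC families were almost silent, as 8 of 14 had 0 counts in every library and 12 had at most 3. Only Cxcl14, a chemokine best known from epithelia, was tested. It had 14, 16 and 8 counts in wild-type, 180, 160 and 216 in knock-out and 7, 12 and 17 in ΔTAD libraries. It rose in knock-out macrophages (log2 fold change 3.88, standard error 0.198, edgeR adjusted p = 2.04e-14) but not detectably in ΔTAD macrophages (-0.14, standard error 0.354, edgeR adjusted p = 0.759), and the edited genotypes differed by 4.01 (edgeR adjusted p = 5.24e-14). Of 19 other chemokine receptors, 12 had at most 3 counts in any library and 3 were tested, of which 2 were lower in both edited genotypes and Cxcr5 was not called. Cxcr3, the receptor of Cxcl10, had 329, 270 and 270 counts in wild-type, 121, 140 and 144 in knock-out and 97, 129 and 118 in ΔTAD libraries (log2 fold change -1.08 and -1.39, edgeR adjusted p = 1.32e-09 and 1.95e-11). Ccr4, a receptor of T cells, fell from 25, 15 and 21 counts in wild-type to 1, 3 and 0 in knock-out and 3, 2 and 2 in ΔTAD libraries (edgeR adjusted p = 1.6e-06 and 4.47e-06).

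Of the 7 CC chemokines that bind Ccr1 or Ccr2, 6 were tested, of which 4 were lower and 1 higher in knock-out and 4 lower and 0 higher in ΔTAD macrophages. Ccl2, the main ligand of Ccr2, had 763, 584 and 533 counts in wild-type, 8, 16 and 14 in knock-out and 6, 12 and 9 in ΔTAD libraries (log2 fold change -5.59 and -6.16, edgeR adjusted p = 3.91e-20 and 1.34e-20). Ccl7, another ligand of Ccr2, had 13, 16 and 16 counts in wild-type libraries, 0, 1 and 0 in knock-out and 0 in each ΔTAD library, at least 5.12-fold lower in the latter with a floor of 3 counts per library. Ccl3, a ligand of Ccr1, was abundant at 1140 CPM in wild-type, 958 CPM in knock-out and 310 CPM in ΔTAD cells on average (log2 fold change -0.25 and -1.88, edgeR adjusted p = 3.47e-06 and 4.24e-22). Ccl5, also a ligand of Ccr1, was higher in knock-out macrophages with 25, 38 and 44 counts against 15, 21 and 6 in wild-type libraries (log2 fold change 1.37, edgeR adjusted p = 0.00101), while ΔTAD libraries had 11, 10 and 18 (log2 fold change -0.16, edgeR adjusted p = 0.749).

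**Figure D5:**
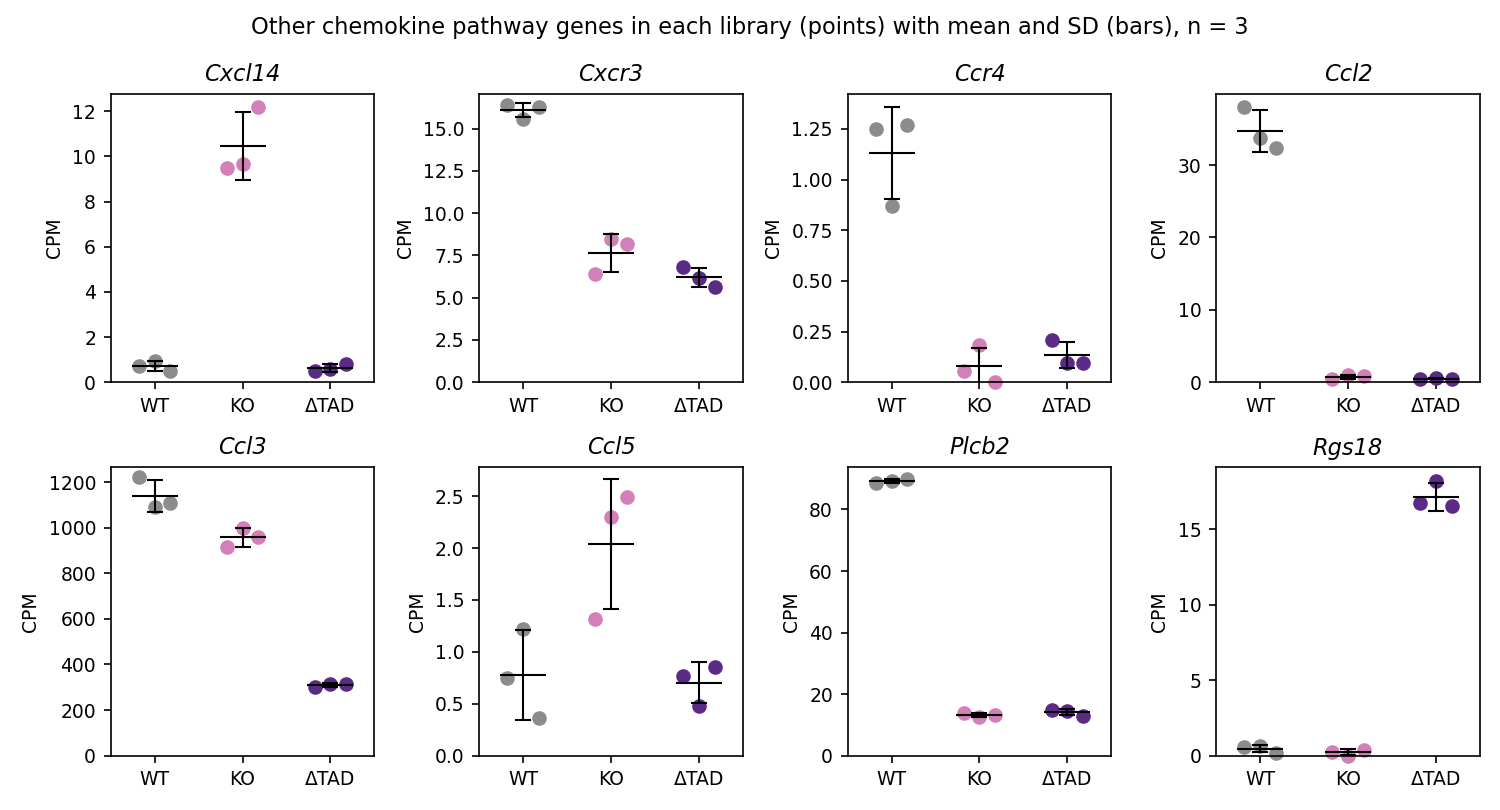
Level in CPM (y axis, linear from 0, one scale per gene) of 8 other genes of the chemokine pathway in wild-type (WT), knock-out (KO) and ΔTAD libraries. Points are libraries, the long bar is the mean and the whiskers are the SD (n = 3). Cxcl14 and Ccl5 are highest in knock-out, Rgs18 in ΔTAD, and Cxcr3, Ccr4, Ccl2, Ccl3 and Plcb2 in wild-type macrophages.

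Downstream of the receptors, 17 of 19 genes of receptor coupling and desensitization were tested, of which 5 were higher and 6 lower in knock-out and 9 higher and 3 lower in ΔTAD macrophages. Rgs1 and Rgs2, which shorten G protein signals of chemokine and other receptors, were higher in both (log2 fold change 1.64 and 1.48 for knock-out, 0.68 and 0.53 for ΔTAD), and each differed between the edited genotypes (edgeR adjusted p = 9.04e-15 and 3.83e-16). Rgs18, a regulator of the same family in haematopoietic cells, had 239, 379 and 346 counts in ΔTAD libraries against 12, 11 and 3 in wild-type libraries (log2 fold change 5.13, edgeR adjusted p = 2.61e-16) and 5, 0 and 7 in knock-out libraries. The receptor kinase gene Grk5 was lower in both (log2 fold change -1.12 and -0.54, edgeR adjusted p = 1.92e-08 and 0.000177). All 12 genes of migration signalling were tested, with 7 higher and 3 lower in knock-out and 9 higher and 2 lower in ΔTAD macrophages. Plcb2, a phospholipase activated by G protein subunits, had the largest difference, from 1780, 1545 and 1484 counts in wild-type to 261, 211 and 233 in knock-out and 215, 302 and 274 in ΔTAD libraries (log2 fold change -2.75 and -2.66, edgeR adjusted p = 4.26e-22 and 3.93e-22). Pik3r6 and Pik3r5, which encode regulatory subunits of the PI3-kinase that responds to chemokine receptors, rose by 1.0 and 0.55 on the log2 scale in knock-out macrophages. In ΔTAD macrophages they rose by 1.19 and 0.91, and Plcb3 rose by 0.42 in the former and 0.62 in the latter. Of 5 proteases that cleave chemokines, 3 were tested. Adam10 and Adam17, which shed Cxcl16 and fractalkine from the membrane, had log2 fold changes of 0.18 and -0.19 in knock-out macrophages (edgeR adjusted p = 0.000295 and 3.63e-05) and were not called in ΔTAD macrophages (0.12 and 0.01), and Mmp9 was higher in both (0.59 and 0.50). The increase of Mmp9 in ΔTAD macrophages was not called without ΔTAD replicate 1 (log2 fold change 0.41, edgeR adjusted p = 0.018).

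All 20 genes listed as transcription regulators of chemokine genes were tested, with 13 higher and 2 lower in knock-out and 11 higher and 2 lower in ΔTAD macrophages. Cebpa, which encodes another C/EBP factor, had 42, 65 and 54 counts in wild-type, 315, 280 and 249 in knock-out and 174, 252 and 273 in ΔTAD libraries (log2 fold change 2.40 and 2.05, edgeR adjusted p = 1.25e-13 and 4.41e-12). Relb, an NF-κB subunit, and Tnfaip3, an inhibitor of NF-κB signalling, were higher in both (log2 fold change 1.02 and 1.19 in knock-out, 1.41 and 1.01 in ΔTAD macrophages). Irf7, an interferon-induced factor, had 32, 24 and 16 counts in wild-type, 72, 54 and 65 in knock-out and 18, 29 and 29 in ΔTAD libraries. It was higher in knock-out (log2 fold change 1.42, edgeR adjusted p = 1.42e-06) and not detectably so in ΔTAD macrophages (0.02, edgeR adjusted p = 0.954), with a difference of 1.4 between them (edgeR adjusted p = 3.87e-06). The numbers of called genes in these lists are to be read beside the 45.2% and 49.7% of all tested genes that were called.

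The protein-coding genes whose pattern was most like that of a member were taken by Pearson's r of log2 CPM over the 9 libraries among 11012 genes. For Cx3cr1 these were Ppp1r12b (r = 0.999) and Slc39a1 (0.998), for Cxcl16 Ergic1 and Nrp1 (both 0.998), and for Cxcr4 Fer (0.997) and Zfp467 (0.996). For Cxcl2 they were Alcam and Dab2 (both 0.993), for Ccr1 Fcf1 (0.992) and Sarm1 (0.991), for Ccr2 Antxr1 (0.990) and Acsbg1 (0.989), and for Cxcl10 Gse1 (0.962) and Ctnna1 (0.960). The points fall into 3 genotypes that share libraries with every other gene, so r describes the order and spacing of the genotypes and not the size of the change. Slc39a1, for example, had log2 fold changes of 0.24 and 0.51 in knock-out and ΔTAD macrophages, against 1.44 and 2.83 for Cx3cr1.

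The levels of Cx3cr1 and Cxcl16 followed the same order of genotypes as the summed level of the macrophage markers given above. The share of all tested genes with this order was not counted. For Cxcl16 the call between the edited genotypes was lost in several fits, as given above. Cxcr4, also higher in both edited genotypes, had means of 13.9 CPM in knock-out and 11.7 CPM in ΔTAD libraries, a difference that was not called. Of the macrophage markers Lyz2, Adgre1, Ptprc, Cd68, Spi1 and Cd14 were called higher in both edited genotypes and Fcgr1 was lower in both. Csf1r was not called in knock-out macrophages (log2 fold change -0.06) and was higher in ΔTAD macrophages (0.20), and Itgam was called in neither. Cx3cr1 and Cxcl16 also followed the order of the summed level of the osteoclast markers Ctsk, Acp5, Calcr, Ocstamp and Dcstamp. That level was 96.64 to 104.2 CPM in the wild-type, 176.8 to 180.4 CPM in the knock-out and 1543 to 1611 CPM in the ΔTAD libraries. Ctsk made up most of the rise of this sum in ΔTAD macrophages, with means of 56.3 CPM in wild-type and 1550 CPM in ΔTAD libraries. Of these 5 markers 4 were above the floor in some library. In ΔTAD macrophages 1 was higher (Ctsk, log2 fold change 4.78) and 1 lower (Dcstamp, -0.58). In knock-out macrophages Ctsk and Dcstamp were called higher (log2 fold change 0.88 and 0.82) and Ocstamp lower (-1.73). Acp5 was called in neither edited genotype. The markers of this list thus did not share the order of their sum. The part of these markers in the results on Cx3cr1 and Cxcl16 was not tested.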

How the data were processed

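RNA of 9 libraries of RAW264.7 macrophages, 3 each of wild-type, knock-out and ΔTAD cells, was analysed. The authors depleted ribosomal RNA, sequenced single-end reads and used Trimmomatic for trimming, Hisat2 for alignment to GRCm38 and HTSeq for counting on Ensembl genes. The deposited values are raw read counts, without normalization, and the strand setting of the counting is not given in the sources used here. Tally lines, which name no gene, hold 46.77% to 53.35% of the records and were left out. Between 16113306 and 20981829 counts per library remained, so that a few counts limit the precision for Ccr1, Ccrl2 and Cxcl10.

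Genes were kept by edgeR's filterByExpr (minimum count 10, minimum total 15), which left 14312 genes, and scaled by TMM. One quasi-likelihood model (edgeR 4.0.16, R 4.3.3) was fitted to all libraries with Benjamini-Hochberg adjustment over all genes tested, and genes with an adjusted p-value under 0.01 were called. The standard error was taken as the size of the log2 fold change over the root of its F value. Positions and exon lengths are from GENCODE M21 and promoters from RefSeq, both on GRCm38. As alternatives, limma-voom (limma 3.58.1) and DESeq2 1.42.0 were run, with other scalings, filters, thresholds and samples, the replicate number as a block, and leaving out each library. The scripts were tested on simulated data.

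The members and lists were chosen with earlier results of these data known. Named are all members, Cebpd, up to 4 called genes with the largest absolute log2 fold change against wild-type in each other list, and for each called member the 2 protein-coding genes most like it. Markers, the ribosomal RNA genes, Lars2, Art3, Gm33858, Zmynd15, Cxcl12, Cx3cl1 and Cxcr5 were named beyond this rule, after their values were seen. Proteins were not used here. P-values set the difference between genotypes against the spread between libraries of a genotype, which was estimated with information from all tested genes. Where libraries of a genotype share a clone, this spread does not cover differences between clones. Whether the wild-type cells of these libraries were sorted, selected and cloned like the edited cells is not given in the sources used here. Differences that came with these steps cannot be told apart from those of the edit.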

Additional observations from a re-analysis of the deposited data

How the results depend on the processing

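With the counts of members called in each direction and the log2 fold change of each member, 503 values were recomputed, and no log2 fold change turned its sign. Of 389 log2 fold changes, 371 stayed on their side of the threshold, 16 lost and 2 gained a call, and of 114 counts 9 moved by more than 1.5 times. Knock-out against ΔTAD, 1 instead of 2 members was called lower with DESeq2, with library size alone, with a required log2 fold change of 1 in size and with at least 10 counts in every library, the first 3 because Cxcl16 was lost and the last because it was not tested. Leaving out 1 library gave 1 to 2 members there. Requiring at least 10 counts in every library left 4 members to test and so lowered the number called higher in knock-out macrophages from 5 to 3 and that called lower from 1 to 0. With library size as the only scaling, the median of all genes moved by -0.085 on the log2 scale in ΔTAD macrophages. The labels share replicate numbers, but these did not pair the libraries (correlations of the deviations from the genotype means between -0.072 and 0.02 for same-numbered libraries). With the replicate number as a block the numbers called were as in the model without it: 5 higher and 1 lower in knock-out macrophages, then 3 and 3 for ΔTAD, and 3 and 2 between the edited genotypes. Depth limits statements on Ccrl2, Ackr3 and the difference in Ccr1 between the edited genotypes.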
